A study of Homo sapiens with 30 samples.

Results

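The expression of 42 interferon response genes was followed library by library in SW1783, an established human astrocytoma cell line that was exposed to Korean herbal extracts for 24 h. The members were a list of gene symbols. All 42 were found among the 60675 genes of the count table, and all 42 were among the 17839 genes that passed a filter on low counts and were tested. Of the 30 libraries, 3 came from vehicle cells in 0.1% DMSO per the sample labels, while the series' design text names 2%. Palmul-tang and Sibjeondaebo-tang, both water extracts, were each given at 20, 100 and 500 µg/mL with 3 libraries per dose. Samul-tang, also extracted with water, and Poria Cocos and Atractylodis Rhizoma, extracted with ethanol, were given at the same 3 doses with 1 library per dose. In Korean medicine, Palmul-tang holds the herbs of Samul-tang together with others that include Poria and Atractylodes, and Sibjeondaebo-tang adds cinnamon bark and astragalus to Palmul-tang. No group analysed here received an interferon, so every level is that of cells without added interferon.

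Type I and type III interferons are secreted by cells that sense viral RNA or DNA. They act through receptors and the kinases JAK1 and TYK2 on transcription factors that include STAT2 and IRF9 and bind a DNA motif called the interferon-stimulated response element (ISRE). Interferon gamma acts largely on another motif, called the gamma-activated site (GAS). Astrocytes are known to make interferon beta and to answer it.

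The members fall into 12 roles. IFIH1 and DDX60 sense viral RNA, and STAT2, IRF9, IRF1 and IRF7 carry the signal to DNA. USP18, HERC5, HERC6 and UBE2L6 attach or remove the ubiquitin-like protein ISG15 or, as HERC6, are relatives of such enzymes. IFIT1, IFIT2, IFIT3 and IFIT5 bind viral RNA, and IFITM1, IFITM2 and IFITM3 block entry through membranes. OAS1, OAS2 and OAS3 are oligoadenylate synthetases that serve RNase L, and OASL is a relative of the same family. MX1 and MX2 are antiviral GTPases, and RSAD2, CMPK2, ISG20, SAMD9 and SAMD9L act on nucleotides or RNA. BST2 tethers budding virus and TRIM22 restricts viral transcription. PARP9 and PARP14 are ADP-ribosyltransferases, while PSMB8 and PSMB9 of the immunoproteasome and the transporter TAP1 prepare peptides for class I molecules. IFI6, IFI27, IFI35, IFI44, IFI44L, XAF1 and EPSTI1 are further induced genes.

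The promoters of 6 members named in the results below are shown, taken from the members with a match to the ISRE or the GAS. MX1, IFIT1 and IFI44L stood out in 1 library, TAP1 and IRF1 followed the dose, and IFIT3 was lowest with Poria Cocos. Among other members named below, OAS1 held no ISRE match, and CMPK2, SAMD9L and PSMB9 held neither. RefSeq windows of 300 bases (GRCh38.p14, 250 before to 50 after a listed start) were found for 34 members. IFIT2, TRIM22, OASL, IRF7, USP18, OAS2, IFITM2 and MX2 are named only. The ISRE was searched as GAAANNGAAA and the GAS as TTCNNNGAA, on both strands. The stretches of 60 bases below each lie upstream of 1 start that RefSeq lists for the gene, read 5′ to 3′ on the gene's strand, with the matching letters in capitals. Those of MX1, IFI44L, IFIT3 and TAP1 lie inside the gene's whole annotated span, so the start they precede is not the outermost one.
MX1 (ISRE, chr21:41431829-41431888, plus strand): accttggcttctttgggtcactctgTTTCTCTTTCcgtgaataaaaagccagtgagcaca
IFI44L (ISRE, chr1:78620350-78620409, plus strand): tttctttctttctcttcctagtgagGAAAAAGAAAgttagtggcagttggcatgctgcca
IFIT1 (2 ISRE matches, chr10:89392495-89392554, plus strand): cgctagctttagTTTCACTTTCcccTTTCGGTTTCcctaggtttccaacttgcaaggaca
IFIT3 (ISRE, chr10:89332453-89332512, plus strand): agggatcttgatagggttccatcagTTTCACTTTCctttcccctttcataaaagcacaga
TAP1 (2 overlapping ISRE matches, chr6:32853798-32853857, minus strand): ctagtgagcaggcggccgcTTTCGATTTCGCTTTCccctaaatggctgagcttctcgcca
IRF1 (GAS, chr5:132490863-132490922, minus strand): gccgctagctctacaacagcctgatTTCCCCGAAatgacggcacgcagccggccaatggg
In MX1 a GAS match overlaps the end of the ISRE match. An ISRE match was present in 23 of the 34 members with a window (67.6%), against 4.38% of the 27305 genes with a window and 3.57% of the 35116 windows. A GAS match was present in 13 (38.2%), against 9.38% of genes and 7.66% of windows, and 9 members had both. A match is a run of letters in a window, and no binding was measured.

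Library totals ran from 22568755 to 37822334 counts, and mitochondrial genes took 6.43 to 7.67% of them. All pairs of replicates differed by more than sampling noise. Sibjeondaebo-tang 500 replicate 3 differed most from its mates over all genes, with a chi-square per gene of 7.697 and 6.976. Between replicates 1 and 2 of that group it was 2.558. Sibjeondaebo-tang 500 replicate 3 was the highest library for 6 members, IRF1, TAP1 and PSMB8 among them, and for 6.48% of tested genes. Replicate 2 of Sibjeondaebo-tang at 100 µg/mL stood apart for the members, and it had both the highest total and the lowest mitochondrial share. The part of either in its values was not tested. Of 12 astrocyte markers only 7 passed the filter: VIM, an intermediate filament, was at 4390 to 5674 CPM, the count scaled to a common library size, while GFAP, S100B and AQP4 had 51, 64 and 20 counts in all 30 libraries. The 10 markers of immune cells summed to 166 to 225 CPM in the libraries, most of it CD68. No label says that replicates came from separate cultures, so a p-value here reflects just how far these libraries spread, which may be technical. The vehicle libraries carry sample codes of their own, so that the treatment and the handling of the vehicle cannot be told apart. The codes of Samul-tang, and those shared by Poria Cocos and Atractylodis Rhizoma, also start differently from those of Palmul-tang and Sibjeondaebo-tang. Differences between these extracts and the replicated formulas therefore cannot be told apart from handling either.

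Per kilobase of exon, the level of IFITM3 was the highest of the members, at 242 CPM per kb (mean of 30 libraries). BST2 at 70.2 and IFI6 at 36.3 followed, while TAP1 was at 16.3. RSAD2, the enzyme viperin, was lowest at 0.094. On the CPM scale without length, the means of RSAD2, CMPK2 and ISG20 were 0.455, 0.674 and 0.998, so that their values rest on few counts. The members were therefore measured at levels that differed widely between roles, and the genes that stood out in 1 library were mostly not the abundant ones.

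**Figure D1:**
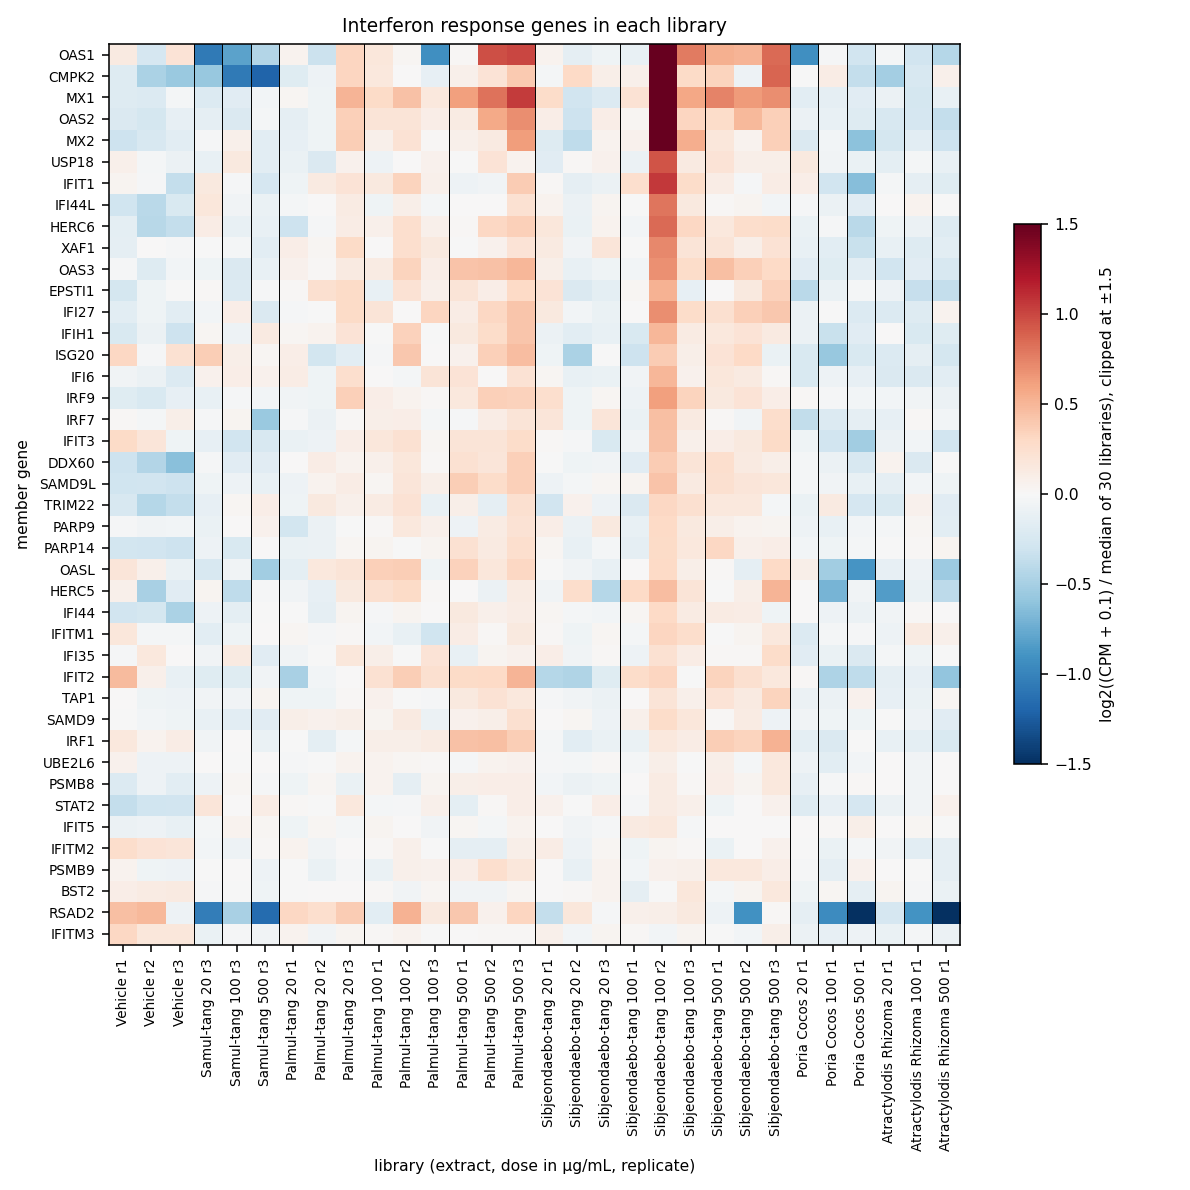
Each row is 1 of the 42 members and each column 1 of the 30 libraries; colour is log2 of CPM plus 0.1 over the gene's median across libraries, clipped at 1.5 either way. The column of Sibjeondaebo-tang 100 replicate 2 is red in the upper rows, where OAS1, CMPK2, MX1, OAS2 and MX2 stand, and pale in the rows of BST2, RSAD2 and IFITM3 at the bottom.

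In that 1 library the members were high together. MX1 (ENSG00000157601, chr21:41420304-41459214, plus strand, GRCh38), whose ISRE is printed above, was at 14.1, 51.5 and 18.2 CPM in replicates 1, 2 and 3 of Sibjeondaebo-tang at 100 µg/mL. In the other 29 libraries MX1 did not exceed 25.3 CPM, and their median was 11.9. OAS2 was at 8.7, 24.6 and 10.7 CPM in the same 3 libraries, with 13.9 as the highest of the other 29. Only replicate 2 lay outside the range of all other libraries for both genes, while replicates 1 and 3 lay within it.

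The same library was the highest of 30 for 26 of the 42 members (61.9%), against 2.06% of the tested genes, and no other library was highest for more than 6. It lay above both of its group mates for 38 members, where 33.3% of tested genes did so. Members at least 2-fold above the mean of replicates 1 and 3 numbered 5, where 0.925% of tested genes were: OAS1 at 3.83-fold, CMPK2 at 3.8-fold, MX1 at 3.21-fold, OAS2 at 2.54-fold and MX2 at 2.32-fold. A fold of at least 1.25 was reached by 21 members, against 7.37% of tested genes. OAS1 and CMPK2, at 5.37 and 2.87 CPM in this library, are low genes, and MX1 rested on 1955 counts. The difference was described and not tested, since the library was singled out by its values.

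Next in order were USP18 at 1.89-fold, IFIT1 at 1.74-fold, IFI44L at 1.66-fold, HERC6 at 1.65-fold and XAF1 at 1.54-fold. USP18 is the protease that removes ISG15 and dampens receptor signalling, and it was at 5.44, 11.2 and 6.36 CPM. IFI44L was at 36.2, 63.1 and 40.0 CPM, and IFIT1 at 12.7, 22.3 and 12.9 CPM. Among sensors and transducers the ratio of replicate 2 to the mean of its mates was 1.47 for IFIH1, 1.4 for IRF9, 1.36 for IRF7 and 1.29 for DDX60, but 1.11 for IRF1 and 1.07 for STAT2. It was 1.11 for TAP1 and lowest for BST2, RSAD2 and IFITM3, at 0.985, 0.979 and 0.953. RSAD2 and CMPK2, neighbours on chromosome 2 that are often induced as a pair, thus stood apart from each other here, with RSAD2 at 0.524, 0.527 and 0.556 CPM.

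Ranked by the log2 difference of this library from its mates, the 12720 genes whose log2 CPM averaged 1 or more had 6 members among the first 20 and 16 among the first 100. MX1 ranked 2 and OAS2 ranked 4. Of 95 other genes of the pathway, 80 were tested, and 4 of these were in the first 100. DDX58, the RNA sensor RIG-I, was 1.48-fold higher there, and ISG15 was at 19.2, 30.5 and 22.8 CPM. The first 10 also held genes of neither list: SMIM11B, EIF3CL, RGPD5, AC114546.3 and RN7SL2, each higher still in at least 1 other library, and AC013268.1, which like MX1 was highest in this one (4.66 CPM against at most 3.97).

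The ligands themselves were near the limit of detection. IFNB1, which encodes interferon beta, had 12 counts in all 30 libraries, and 4 of them were in this library, the most in any. IFNL1 had 3 counts in all and 0 in this library, and CXCL10, a chemokine induced by interferons, had 9 counts in all and 0 here. These counts are too few to compare libraries. Immune cell markers summed to 185 CPM in this library, the lowest of its group, where the highest was 216 CPM. In bulk RNA, a moderate level in all cells and a high level in a few cells cannot be told apart.

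The median member was 0.32 higher on the log2 scale than the mean of the group mates in this library, with all tested genes at 0.0. In the other 20 libraries with group mates the same median ran from -0.33 to 0.15. The -0.33 was that of Sibjeondaebo-tang 100 replicate 1, whose mates include the high library. The next lowest was -0.11, for Palmul-tang 500 replicate 1. In the high library the median was 0.28 for the 23 members with an ISRE match. It was 0.34 for the 11 members whose windows held none, OAS1 and CMPK2 among them.

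**Figure D2:**
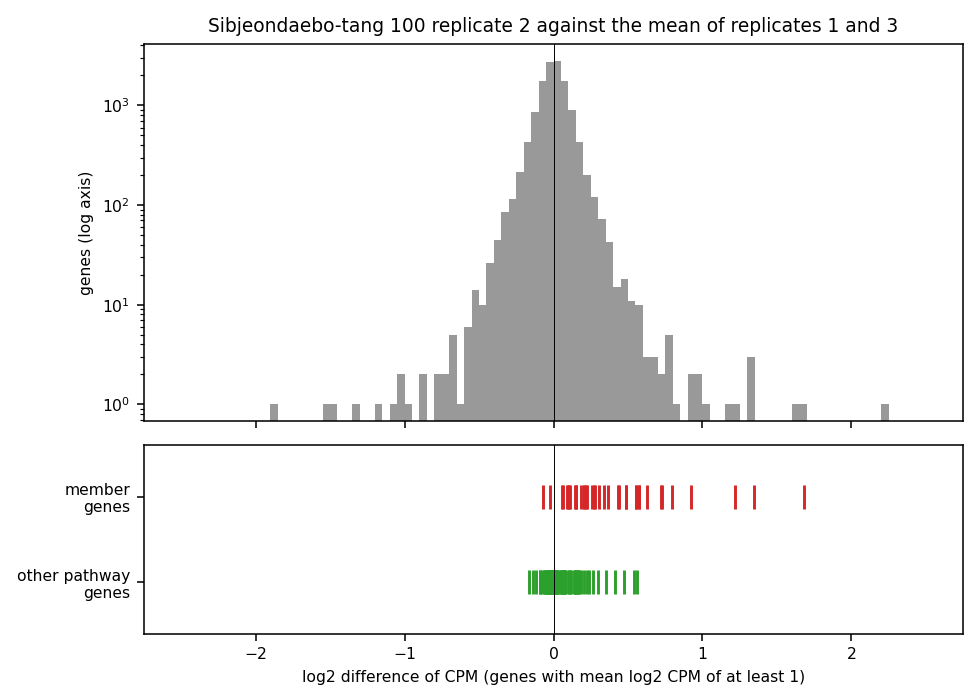
The upper panel is a histogram (log count axis) of the log2 difference in CPM between Sibjeondaebo-tang 100 replicate 2 and the mean of replicates 1 and 3, over the 12720 genes whose log2 CPM averaged 1 or more. The lower panel marks the 38 members at that level and the other pathway genes on the same axis: the members reach from about 0 to the mark of MX1 at 3.21-fold, and most lie right of 0.

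Within the replicated formulas, the question was whether the members changed with the dose. IRF1, TAP1 and IFIT2 rose between 20 and 500 µg/mL with both Palmul-tang and Sibjeondaebo-tang, by 0.21 to 0.61 on the log2 scale. IRF1 (ENSG00000125347, chr5:132481609-132490798, minus strand), a transcription factor of both interferon pathways whose promoter GAS is printed above, was at 27.7, 25.1 and 27.2 CPM with Palmul-tang at 20 µg/mL. It was at 29.5, 29.7 and 30.4 CPM at 100 µg/mL and at 37.8, 38.2 and 36.0 CPM at 500 µg/mL. With Sibjeondaebo-tang the values were 27.2, 24.9 and 26.0 CPM at 20, then 26.0, 31.1 and 30.2 at 100, then 35.9, 35.0 and 39.9 at 500. All 6 libraries at 500 µg/mL lay above all others, the vehicle included, whose 3 libraries ran from 29 to 31.2 CPM (mean 30.1 ± 1.11, SD). The log2 fold change of IRF1 from 20 to 500 µg/mL was 0.49 ± 0.059 (SE, n = 3 and 3; edgeR quasi-likelihood test, Benjamini-Hochberg adjusted p = 3.02e-07) with Palmul-tang. With Sibjeondaebo-tang it was 0.50 ± 0.059 (adjusted p = 9.01e-08).

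TAP1 (ENSG00000168394, chr6:32845209-32853978, minus strand), a subunit of the peptide transporter, was at 73.6, 73.2 and 77.9 CPM with Palmul-tang at 20 µg/mL and at 84.8, 89.2 and 86.0 CPM at 500 µg/mL. With Sibjeondaebo-tang it was at 75.6, 73.8 and 72.0 CPM and at 88.6, 84.6 and 96.9 CPM. The doses did not overlap in either formula, and vehicle was at 77.2, 73.4 and 72.6 CPM. The log2 fold change of TAP1 was 0.21 ± 0.047 (adjusted p = 0.0033) and 0.29 ± 0.046 (adjusted p = 3.51e-05). The calls of IRF1 and TAP1 held with each library left out in turn.

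IFIT2, which binds viral RNA, was at 6.12, 8.39 and 8.65 CPM with Palmul-tang at 20 µg/mL and at 10.5, 10.6 and 12.3 CPM at 500 µg/mL. With Sibjeondaebo-tang it was at 6.37, 6.27 and 7.57 CPM and at 10.9, 10.2 and 9.64 CPM. The doses did not overlap, while the vehicle libraries, at 12.0, 9.04 and 7.93 CPM, reached into the range at 500 µg/mL of both formulas and at 20 µg/mL of Palmul-tang. The log2 fold change of IFIT2 was 0.54 ± 0.14 (adjusted p = 0.0233) with Palmul-tang and 0.61 ± 0.14 (adjusted p = 0.00914) with Sibjeondaebo-tang. Its call was lost without Palmul-tang 20 replicate 1 (adjusted p = 0.0986) or Palmul-tang 500 replicate 3 (0.118). With Sibjeondaebo-tang it was lost without 500 replicate 1 (0.0505), 20 replicate 1 (0.0518) or 20 replicate 2 (0.0549).

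With Palmul-tang 6 of the 42 members rose and 0 fell from 20 to 500 µg/mL, where 2.83% of tested genes rose. Besides the 3 above these were SAMD9L, a restriction factor, at 0.31 ± 0.068 (adjusted p = 0.00439), PARP14 at 0.26 ± 0.074 (adjusted p = 0.0366) and PSMB9 at 0.22 ± 0.066 (adjusted p = 0.0428). SAMD9L was at 28.6, 31.2 and 32.5 CPM at 20 µg/mL and at 38.9, 36.5 and 38.7 CPM at 500 µg/mL, and its call held without each library. PARP14 lost its call without Palmul-tang 500 replicate 1 or 3, or 20 replicate 1 or 2 (adjusted p 0.122 to 0.147), and PSMB9 without any library of the comparison except 500 replicate 1 (0.07 to 0.229). The count was 3 without Palmul-tang 20 replicate 1 or without 500 replicate 3. With Sibjeondaebo-tang 4 members rose and 0 fell, where 3.45% of tested genes rose. The fourth was PSMB8 at 0.17 ± 0.05 (adjusted p = 0.0362), at 37.4, 36.2 and 37.0 CPM and then 41.3, 39.7 and 43.2 CPM. PSMB8 lost its call without any library of the comparison except 500 replicate 2 (0.0749 to 0.134). The count was 2 without Sibjeondaebo-tang 500 replicate 1, 20 replicate 1 or 20 replicate 2. The median log2 fold change of the members was 0.181 and 0.17, against -0.001 and 0.001 over all tested genes.

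MX1 and OAS3 show how the high library entered the tests, since all libraries share 1 estimate of the spread for each gene. MX1 was at 12.4, 11.6 and 17.4 CPM with Palmul-tang at 20 µg/mL and at 18.7, 21.5 and 25.3 CPM at 500 µg/mL. With Sibjeondaebo-tang it was at 14.7, 9.97 and 10.5 CPM and at 20.4, 19.0 and 19.8 CPM. The doses did not overlap, yet MX1 was not called (adjusted p = 0.425 and 0.358). Without Sibjeondaebo-tang 100 replicate 2, the log2 fold change of MX1 was 0.67 ± 0.17 (adjusted p = 0.0337) with Palmul-tang and 0.75 ± 0.17 (adjusted p = 0.0167) with Sibjeondaebo-tang. OAS3, the synthetase that prefers long double-stranded RNA, was likewise called only without that library, at 0.38 ± 0.071 (adjusted p = 0.000659) and 0.41 ± 0.071 (adjusted p = 0.000266). The count of members that rose was then 8 with Palmul-tang, where 2.87% of tested genes rose, and 9 with Sibjeondaebo-tang, where 3.53% rose. The ones added with Sibjeondaebo-tang were MX1, OAS3, SAMD9L, PARP14 and IFI27, each called with an adjusted p of at most 0.0498. That library was singled out by its values of these members, so the calls gained without it depend on that choice. They are no independent support, and each count given without that library has the same limit.

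All 3 libraries at 500 µg/mL lay above all 3 at 20 µg/mL for 12 members with Palmul-tang, against 12.0% of tested genes, and for 16 with Sibjeondaebo-tang, against 10.0%. With both formulas together, all 6 libraries at 500 µg/mL lay above all 6 at 20 µg/mL for 9 members, against 3.70% of tested genes. These were IRF1, IFIT2, OAS3, MX1, SAMD9L, PARP14, PSMB8, PSMB9 and TAP1. OAS3 ran from 31.5 to 36.1 CPM at 500 and from 23.5 to 28.0 at 20 µg/mL. MX1 ran from 18.7 to 25.3 and from 9.97 to 17.4 CPM. Immune cell markers summed to 196 to 212 CPM at 500 and 186 to 202 CPM at 20 µg/mL of Palmul-tang, and to 198 to 212 and 192 to 208 CPM with Sibjeondaebo-tang. Their part in the dose differences was not tested.

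**Figure D3:**
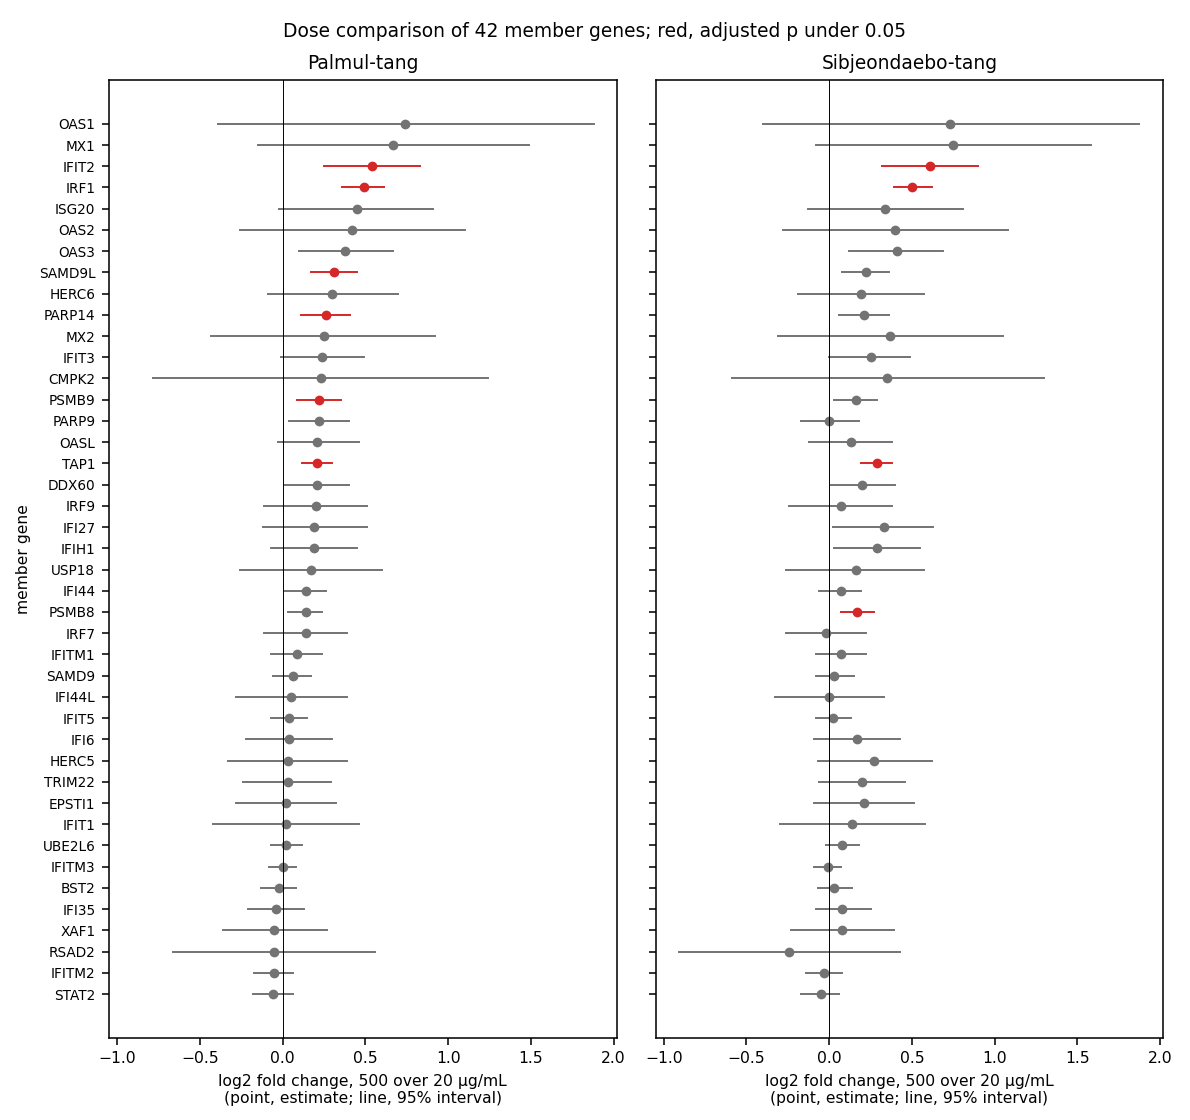
Log2 fold change of each member from 20 to 500 µg/mL for Palmul-tang (left) and Sibjeondaebo-tang (right), with points for the estimate and lines for the 95% interval; red marks an adjusted p under 0.05. IRF1, TAP1 and IFIT2 are red in both panels, and the intervals of OAS1, MX1, CMPK2 and OAS2 are wide.

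Other genes of the pathway were also called with the dose. Of 80 other pathway genes tested, 14 rose and 0 fell with Palmul-tang, where 2.83% of tested genes rose. With Sibjeondaebo-tang 18 rose, where 3.45% of tested genes rose, and 1 fell, where 498 of 17839 tested genes fell. Class I presentation genes made up 7 of the 14 and 9 of the 18, from 13 tested. TAP2, the partner of TAP1, rose by 0.22 ± 0.034 (adjusted p = 2.53e-05) and 0.23 ± 0.034 (adjusted p = 1.14e-05). HLA-B rose by 0.17 and 0.19, TAPBP by 0.24 and 0.25, and NLRC5, the activator of class I genes, by 0.26 and 0.24. The chemokine gene CCL5 rose most, by 1.00 ± 0.17 (adjusted p = 8.99e-05) and 1.22 ± 0.17 (adjusted p = 3.31e-06). CCL5 was at 2.43, 1.89 and 2.83 CPM with Palmul-tang at 20 µg/mL and at 4.16, 4.53 and 5.5 CPM at 500 µg/mL, while vehicle was at 3.91, 3.61 and 2.45 CPM. The doses of CCL5 did not overlap, and all 3 vehicle libraries lay below the 500 µg/mL libraries. CD274, which encodes PD-L1, rose by 0.41 and 0.55. The gene that fell with Sibjeondaebo-tang was SOCS3, a brake on cytokine signalling, at -0.23 ± 0.06 (adjusted p = 0.0124), and it lost its call without 500 replicate 1 (0.118) or 20 replicate 3 (0.0993). None of the 9 receptor and kinase genes was called with either formula. The count of 19 called genes with Sibjeondaebo-tang was 11 without Sibjeondaebo-tang 20 replicate 3; NLRC5 was among those lost then (adjusted p = 0.0745).

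Between 20 and 100 µg/mL no member was called by edgeR, with Palmul-tang (0.163% of tested genes were called) or with Sibjeondaebo-tang (0.207%). An unadjusted p under 0.05 was reached by 3 members with Palmul-tang, against 779 of the 17839 tested genes, and by 26 with Sibjeondaebo-tang, against 963. DESeq2 called 0 and 1, against 30 of 15072 and 40 of 14726 genes. The median log2 fold change of the members was 0.037 and 0.242, and with Sibjeondaebo-tang 39 of 42 were above 0, against 50.3% of tested genes. Without Sibjeondaebo-tang 100 replicate 2 that median was 0.085. Without its replicate 1 the count of called members was 5, against 40 of 17819 tested genes. All 3 libraries at 100 lay above all 3 at 20 µg/mL for 3 members with Palmul-tang (5.29% of tested genes) and for 8 with Sibjeondaebo-tang (5.49%).

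Sibjeondaebo-tang and Palmul-tang, which differ in the added herbs, were compared at the same dose. At 500, 100 and 20 µg/mL no member was called, and 0% of tested genes were at each dose. The count at an unadjusted p under 0.05 was 1, 11 and 0 members, against 863, 478 and 629 of the 17839 tested genes, and DESeq2 called 0 at each dose. At 500 µg/mL the log2 difference of IRF1 (Sibjeondaebo-tang minus Palmul-tang) was -0.01 with a 95% interval from -0.13 to 0.10. That of TAP1 was 0.06 (-0.04 to 0.15), and that of OAS3 was -0.08 (-0.36 to 0.19). The interval of MX1, at -0.15 (-0.93 to 0.62), was far wider. At 100 µg/mL the difference of MX1 was 0.94 (0.16 to 1.73, adjusted p = 1), with the high library in the mean. Without Sibjeondaebo-tang 100 replicate 1 the count at 100 µg/mL was 1, against 2 of 17819 tested genes.

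**Figure D4:**
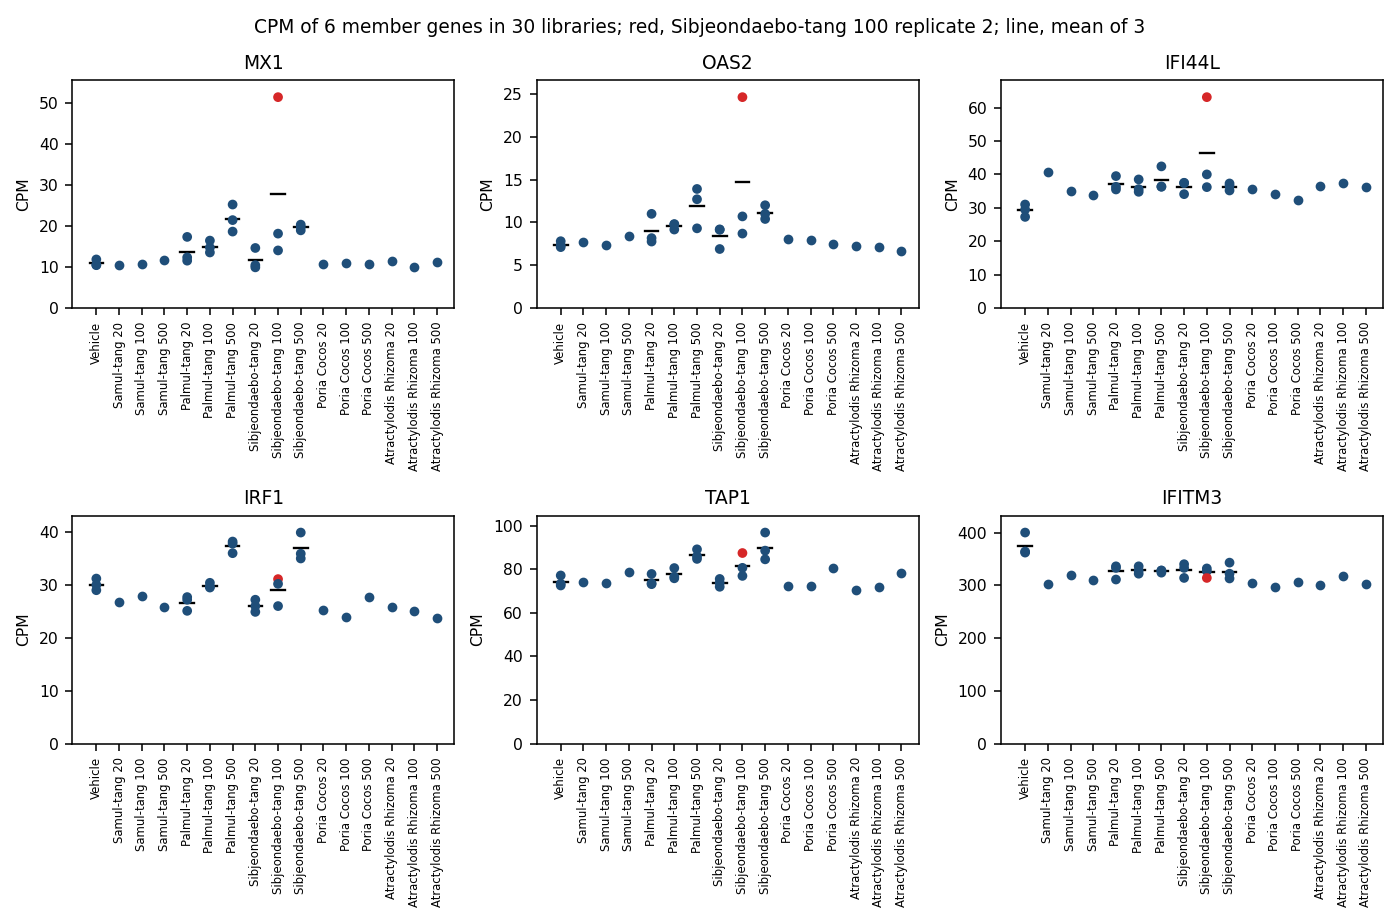
CPM of MX1, OAS2, IFI44L, IRF1, TAP1 and IFITM3 in the 30 libraries by group, with doses in µg/mL; points are libraries, the red point is Sibjeondaebo-tang 100 replicate 2 and lines are means of 3. MX1 reaches 51.5 CPM in the red point, IRF1 is highest at 500 µg/mL of Palmul-tang and Sibjeondaebo-tang, and all treated libraries of IFITM3 lie below the 3 vehicle libraries.

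Against vehicle, the comparisons share the same 3 control libraries, so their values are set side by side and not counted together. Of all genes, 10.2 to 15.7% were called in each direction, so that many unrelated genes moved too. IFI44, DDX60, STAT2, SAMD9L and PARP14 were higher and IFITM2 and IFITM3 were lower than vehicle in all 9 comparisons, except that STAT2 was not called with Poria Cocos and PARP14 was not called with Samul-tang. Some of these calls were lost with 1 library left out. DDX60 lost its call without Vehicle replicate 3 with Samul-tang (adjusted p = 0.11) and Poria Cocos (0.102), and also without Samul-tang 20 (0.097) or Poria Cocos 20 (0.07). SAMD9L lost it with Samul-tang without any vehicle library, Samul-tang 100 or Samul-tang 20 (0.0525 to 0.0745), and with Atractylodis Rhizoma without Vehicle replicate 1 or 3 or its 500 or 100 library (0.0618 to 0.0741). PARP14 lost it with Palmul-tang 20 without any vehicle library or 20 replicate 3 (0.0594 to 0.118), with Sibjeondaebo-tang 20 without Vehicle replicate 3 (0.0529) or 20 replicate 1 (0.0751), and with Poria Cocos without Vehicle replicate 3 (0.0606). IFITM2 lost it with Palmul-tang 100 without Vehicle replicate 1 (0.0684) or 100 replicate 3 (0.0593), and with Sibjeondaebo-tang 20 without 20 replicate 2 (0.071). DDX60, a cofactor of RNA sensing, was at 15.1, 13.8 and 12.1 CPM in vehicle and at 15.9 to 24.4 CPM in the 27 treated libraries, with a median of 19.0. IFI44 was at 39.5, 40.2 and 34.8 CPM in vehicle and at 43.6 to 59.7 CPM when treated. Every treated library lay above all 3 vehicle libraries for 8 members, against 5.33% of tested genes: DDX60, STAT2, IRF9, IFIT5, SAMD9L, IFI44, IFI44L and PARP14.

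IFITM3 went the other way, at 400, 362 and 364 CPM in vehicle (mean 375 ± 21.6, SD) and at 296 to 343 CPM in the treated libraries. Every treated library lay below all 3 vehicle libraries for IFITM3 and IFITM2, where 7.44% of tested genes did so. The log2 fold change of IFITM3 was -0.20 ± 0.04 (adjusted p = 0.000196) with Palmul-tang at 500 µg/mL and -0.31 ± 0.04 (adjusted p = 3.45e-07) with Poria Cocos over its 3 doses. Its call held without each library in every comparison with vehicle. IFITM1, IFITM2 and IFITM3 are related neighbours on chromosome 11, and exons of IFITM1 and IFITM2 share 351 bases on the same strand. Reads may be split between these genes, so their levels are uncertain one by one.

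With Palmul-tang at 500 µg/mL, 15 members were higher (12.9% of tested genes were) and 3 lower (14.9%). The calls that held without each library were DDX60 at 0.72 ± 0.1, SAMD9L at 0.64 ± 0.071, OAS3 at 0.54 ± 0.14, IFIH1, PARP14, IFI44, STAT2, IRF1, PSMB8, TAP1, IFITM2 and IFITM3. With Sibjeondaebo-tang at 500 µg/mL, 12 were higher (11.7%) and 2 lower (13.3%), and DDX60 was at 0.62 ± 0.1, SAMD9L at 0.50 ± 0.071 and PARP14 at 0.46 ± 0.077. IRF1 was higher than vehicle in both, at 0.31 ± 0.059 (adjusted p = 0.000131) and 0.30 ± 0.059 (adjusted p = 0.000239).

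At 20 µg/mL IRF1 was lower than vehicle instead, at -0.18 ± 0.061 (adjusted p = 0.033) with Palmul-tang and -0.21 ± 0.061 (adjusted p = 0.0106) with Sibjeondaebo-tang. The first call was lost without Vehicle replicate 1 or 3 or Palmul-tang 20 replicate 2 or 3 (adjusted p 0.0525 to 0.174). The second was lost without Vehicle replicate 1 (0.0632) or Sibjeondaebo-tang 20 replicate 2 (0.06). Counts at 20 µg/mL were 6 higher (10.5%) and 3 lower (13.3%) with Palmul-tang, and 5 higher (10.5%) and 4 lower (13.3%) with Sibjeondaebo-tang. At 100 µg/mL of Palmul-tang they were 6 higher (10.2%) and 2 lower (12.8%), and 11 higher and 2 lower without Sibjeondaebo-tang 100 replicate 2, where 10.2% and 12.8% of tested genes were.

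Sibjeondaebo-tang at 100 µg/mL had the most members called against vehicle, 22 higher (11.3% of tested genes) and 2 lower (13.3%), and this count rested on the high library. Without it, 10 were higher (8.05%) and 2 lower (10.3%). MX1 went from a log2 fold change of 1.39 (adjusted p = 0.0163) to 0.56 (0.0754), and CMPK2 from 1.77 (0.00792) to 0.68 (0.176). OAS2 lost its call too (0.15 without that library), as did OAS3, IRF9, IFIH1, IFIT5, IFI27, HERC5, SAMD9, TRIM22 and TAP1. MX2 kept its call without that library at 0.58 (adjusted p = 0.0312) but lost it without Vehicle replicate 1 (0.052), and IFIT1, at 0.36 without that library (0.0475), lost it without Vehicle replicate 3 (0.0864). The calls of DDX60, STAT2, HERC6, SAMD9L, IFI44, IFI44L, PARP14, PSMB8, IFITM2 and IFITM3 held without each library in turn.

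The extracts with 1 library per dose were compared with vehicle by the mean of their 3 doses, with the spread taken from the replicated groups. Samul-tang had 4 members higher (12.0% of tested genes) and 6 lower (15.7%), Poria Cocos 4 higher (12.1%) and 8 lower (15.3%), and Atractylodis Rhizoma 5 higher (12.4%) and 6 lower (15.3%). RSAD2 had the largest decrease of the members called lower in all 3, at 0.708, 0.73 and 0.46 CPM in vehicle and at 0.036 to 0.439 CPM in these 9 libraries. Its log2 fold change was -1.53 ± 0.38 (adjusted p = 0.00228) with Samul-tang, -1.58 ± 0.38 (adjusted p = 0.0018) with Poria Cocos and -2.05 ± 0.42 (adjusted p = 0.00032) with Atractylodis Rhizoma. No library of these extracts reached the lowest vehicle value of RSAD2, but each held few counts. Without Poria Cocos 500 replicate 1, RSAD2 lost its call with Poria Cocos (0.0548), as did OASL (0.164), IFIT2 (0.0851), IFIT3 (0.112) and BST2 (0.0659), and the counts became 4 higher and 3 lower. IRF1 was lower with Poria Cocos at -0.24 ± 0.062 (adjusted p = 0.00369) and with Atractylodis Rhizoma at -0.28 ± 0.062 (adjusted p = 0.000784).

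Along the doses of these 3 extracts there was no replicate, so folds carry counting intervals only. With Poria Cocos, OASL was at 9.6, 6.28 and 4.84 CPM at 20, 100 and 500 µg/mL, a 1.97-fold lower level at 500 than at 20 (95% interval 1.62 to 2.44). IFIT1 was at 11.4, 8.74 and 6.82 CPM (1.67-fold lower, 1.41 to 2.00), and IFIT3 at 22.0, 18.9 and 16 CPM (1.37-fold lower, 1.22 to 1.55). RSAD2 had 13, 5 and 3 counts in these libraries (interval of the fold 1.24 to 24.7). For OASL, IFIT1 and IFIT3 the library at 500 µg/mL was the lowest of all 30, and MX1, at 10.9, 11.1 and 10.8 CPM, did not follow.

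At least 1.25-fold lower at 500 than at 20 µg/mL of Poria Cocos were 7 members (9.79% of tested genes), namely RSAD2, OASL, IFIT1, IFIT3, MX2, IFIT2 and CMPK2, and 2 were higher (10.4%). With Atractylodis Rhizoma 4 were lower (9.39%) and 2 higher (10.4%). There IFIT2 was at 7.83, 7.89 and 5.69 CPM and OASL at 8.3, 8.61 and 6.2 CPM, so that both were lower at 500 µg/mL alone. With Samul-tang 4 were lower (10.7%) and 1 higher (11.1%), and IRF7 was at 4.21, 4.37 and 2.86 CPM. IRF1, which rose with the dose of Palmul-tang and Sibjeondaebo-tang, was at 25.2, 23.9 and 27.8 CPM with Poria Cocos, at 25.8, 25.1 and 23.7 CPM with Atractylodis Rhizoma and at 26.8, 27.9 and 25.9 CPM with Samul-tang. All 9 of these values lay below the lowest vehicle library.

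**Figure D5:**
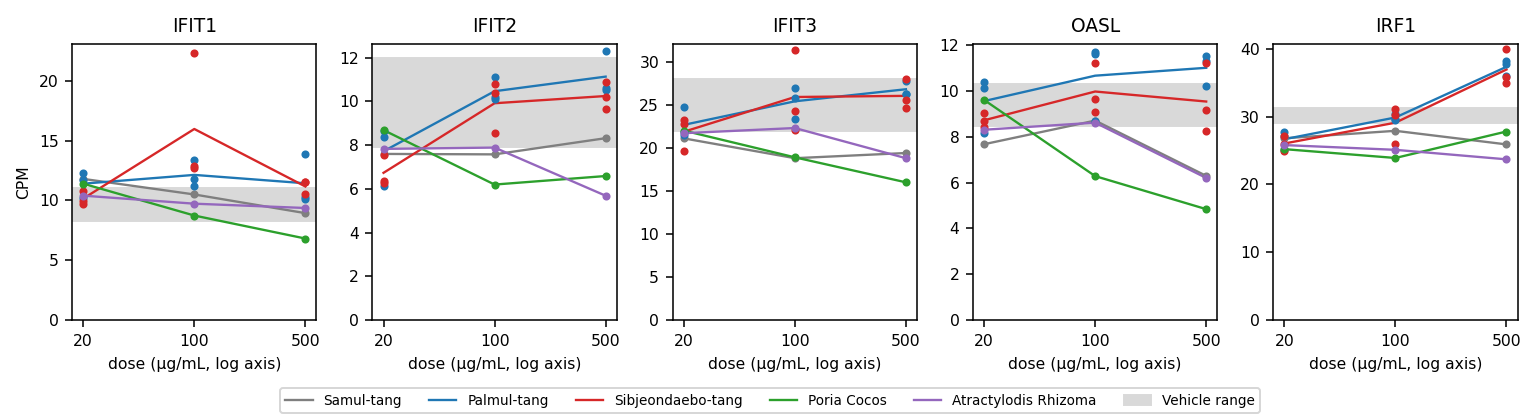
CPM of IFIT1, IFIT2, IFIT3, OASL and IRF1 by dose (log axis) for the 5 extracts; points are libraries, lines join single libraries or means of 3, and the grey band spans the 3 vehicle libraries. The green line of Poria Cocos ends lowest for IFIT1, IFIT3 and OASL, and the lines of Palmul-tang and Sibjeondaebo-tang rise above the band for IRF1.

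The machinery upstream of the members was present in every library. IFNAR1, a chain of the type I receptor, had a median of 121 CPM, IFNAR2 32.4, IFNGR1 68.9, JAK1 161 and TYK2 59.4 CPM. Of the members, 11 were called in none of the comparisons: IFI6, IFI35, IFITM1, ISG20, IRF7, OAS1, XAF1, USP18, UBE2L6, PARP9 and EPSTI1. UBE2L6, the conjugating enzyme for ISG15, stayed between 44.3 and 55.0 CPM, and IFITM1 between 21.6 and 33.4 CPM. OAS1 and USP18 were in this set; both were highest in the high library, and their differences between groups did not pass the test.

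Exons of some members overlap those of other genes, and whether the counting used strand is not given in the sources used here. IRF1 overlaps C5orf56, TAP1 and PSMB8 overlap PSMB8-AS1, XAF1 overlaps PRAL and PARP9 overlaps DTX3L on the opposite strand, while IRF9 shares exonic bases with AL136295.5 on its own strand. The levels of these members are uncertain to that extent.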

How the data were processed

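RNA-seq was made from 30 libraries of SW1783 cells, with a directional kit per the labels' protocols. The authors deposited RSEM expected counts per Ensembl gene. Per the submitters' processing notes the tools were FastQC 0.11.9, Trim Galore 0.6.5, STAR 2.7.3a and RSEM 1.3.3 on GRCh38 (hg38); the annotation release and strand setting are not given in the sources used here. Of 279 columns, 30 match these samples and 249 were left out. The expected counts, of which 24% of nonzero values were not whole, were rounded. Symbols, lengths and coordinates came from GENCODE 29 (57055 IDs matched).

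All 30 libraries were fitted with 1 mean per group in edgeR 4.0.16 (R 4.3.3; filterByExpr, TMM, estimateDisp, robust quasi-likelihood test), with Benjamini-Hochberg adjustment over 17839 genes and a threshold of 0.05. CPM is TMM-scaled. SE is the log2 fold change over the root of F. Alternatives were DESeq2 1.42.0 (size factors; Wald test), no filter, the compared groups only, the replicate number as a block, and each library left out. Counting intervals are 95% and cover counting error only. The test was checked on simulated counts. Totals of 22568755 to 37822334 counts leave genes below 1 CPM with few counts.

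The members, the lists and the tests were chosen with earlier results of these data known. Every member was accounted for by role. Full values were given for members called in a comparison, by smallest adjusted p, and for the 10 members that differed most in Sibjeondaebo-tang 100 replicate 2; of the other pathway genes, up to 10 called ones per comparison and fixed ligands, receptors and kinases were named. Genes of neither list were named from the 10 that differed most in that library. One pathway gene is not reported here.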

Additional observations from a re-analysis of the deposited data

How the results depend on the processing

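No call of a member reversed its direction in any alternative, and 69 of 125 were kept in all of them. Direction was compared only for genes called in the main fit, not for the other members or for the medians. Calls lost were 10 of 121 with the DESeq2 Wald test, 0 of 125 with DESeq2 size factors, 13 of 92 with the compared groups only and 4 of 125 with no filter. With no filter the counts of called members were 1 for Palmul-tang 100 against 20, 3 for Sibjeondaebo-tang 100 against 20 and 2 for Sibjeondaebo-tang against Palmul-tang at 100. Over all genes, 51, 63 and 7 of 34672 were called in the same order. With the compared groups only, the counts of called members were 9 for Sibjeondaebo-tang 500 against 20 and 1 for 100 against 20. Over all genes, 636 of 16126 and 30 of 16100 were called there. Against vehicle the counts of members were 22 for Palmul-tang 100, 17 for Palmul-tang 20, 24 for Sibjeondaebo-tang 500 and 12 for Sibjeondaebo-tang 100. Over all genes they were 4649 of 15870, 5023 of 15900, 3552 of 15969 and 4713 of 15904 in the same order. The DESeq2 Wald test called 1 member for Sibjeondaebo-tang 100 against 20, and 40 of 14726 genes. With 1 library left out at a time, the counts ran from 3 to 8 for Palmul-tang 500 against 20, 2 to 9 for Sibjeondaebo-tang 500 against 20, 0 to 5 for Sibjeondaebo-tang 100 against 20 and 0 to 1 for Sibjeondaebo-tang against Palmul-tang at 100. Against vehicle they ran from 12 to 24 (Palmul-tang 500), 7 to 13 (Palmul-tang 100), 6 to 12 (Palmul-tang 20), 10 to 21 (Sibjeondaebo-tang 500), 12 to 30 (Sibjeondaebo-tang 100), 6 to 11 (Sibjeondaebo-tang 20), 7 to 14 (Samul-tang), 7 to 13 (Poria Cocos) and 8 to 13 (Atractylodis Rhizoma). The counts over all genes changed as well. For Sibjeondaebo-tang 100 against vehicle, 3281 of 17832 genes were called without its replicate 2 (12 members). Without its replicate 1, 3722 of 17819 were called (30 members). Fewer libraries enter these fits, and the cause of the changes was not tested. The highest counts with 1 library left out came without Sibjeondaebo-tang 100 replicate 2. The exceptions were the comparisons of Sibjeondaebo-tang 100 itself, where the highest counts came without its replicate 1. Same-numbered libraries of Palmul-tang and Sibjeondaebo-tang share the start of their sample codes, and no label says what it stands for. In no comparison were all 3 correlations of the deviations of same-numbered libraries over 0.1. They were 0.069, -0.007 and 0.179 for Palmul-tang 500 against 20, and 0.078, 0.098 and 0.124 for Sibjeondaebo-tang 100 against 20. In the latter each library correlated best with its own number, a hint from the data, while no label states a pairing. With the replicate block the counts were 5 for Palmul-tang 500 against 20, 5 for Sibjeondaebo-tang 500 against 20 and 9 for Atractylodis Rhizoma against vehicle, and 5 of 125 calls were lost. Over all genes the block gave 1036, 1258 and 4722 of 17839 in the same order.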
